A study of Mus musculus with 6 samples.

Results

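The naive and stem-like T cell transcription factors described here were 9 genes chosen by name, *Tcf7*, *Lef1*, *Satb1*, *Bach2*, *Foxo1*, *Foxo3*, *Foxp1*, *Ets1* and *Myb*, of the 45777 genes in the deposited tables. They were compared between CD4+Lrig1+ and CD4+Lrig1- T cells, which were sorted by flow cytometry from the spleens of female C57BL/6 mice aged 7 weeks. The labels name no transgene or treatment, and the sort used surface Lrig1, a transmembrane protein with leucine-rich repeats. Bulk mRNA was sequenced, and 2 deposited tables (set 1 and set 2 here) each held 1 CD4+Lrig1+ and 1 CD4+Lrig1- library, so each group had 2 libraries. All 9 genes passed the filter on low counts, with 647 to 142710 estimated read counts in a library. Nothing in the labels says that the libraries came from separate animals, so the p-values measure the spread between these libraries, which may be technical. In bulk samples, fewer cells of a type and less RNA per cell cannot be told apart.

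Naive T cells circulate in a resting state that is kept by a small network of DNA-binding proteins. Tcf7 (the protein TCF1) and Lef1 bind DNA through a high mobility group box and can partner with β-catenin or with Groucho/TLE corepressors. Foxo1 and Foxo3 are forkhead factors that the kinase Akt drives out of the nucleus when the antigen receptor and costimulation activate PI3K. Foxp1 is a forkhead repressor linked to quiescence, Bach2 represses effector programmes, and Satb1 folds chromatin into loops in thymocytes and T cells. Ets1 is an abundant ETS family factor of lymphocytes, and Myb acts in progenitors, in dividing cells and in stem-like and effector regulatory T cells.

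Start regions are shown for the members with the largest fold change in each direction and for the *Lef1*, *Bach2* and *Foxp1* starts whose estimated use is described further on. They are the bases before an annotated RefSeq transcript start on GRCm38.p6, written 5′ to 3′ on the strand of the gene, ended where another transcript of the tables starts. In the GENCODE annotation, 25 bases of the *Satb1* window and 0 of the others lie in an exon of the same gene. The *Satb1* window was chr17:51832648-51832897 (minus strand), the *Lef1* window was chr3:131156044-131156293 (plus strand, before the start inside the gene), the *Bach2* window was chr4:32417185-32417434 (plus strand, before the third group of starts), the *Foxp1* window was chr6:99266647-99266765 (minus strand, before the seventh group of starts) and the *Myb* window was chr10:21160985-21161234 (minus strand). Capitals mark letters that match a searched motif, the TCF/LEF letters CTTTGA or the ETS letters CCGGAAG, on either strand.
Satb1: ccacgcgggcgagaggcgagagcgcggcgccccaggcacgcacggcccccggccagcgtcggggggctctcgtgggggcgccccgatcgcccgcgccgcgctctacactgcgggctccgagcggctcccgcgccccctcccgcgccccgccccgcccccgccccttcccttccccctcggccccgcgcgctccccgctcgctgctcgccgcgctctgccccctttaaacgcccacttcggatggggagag
Lef1: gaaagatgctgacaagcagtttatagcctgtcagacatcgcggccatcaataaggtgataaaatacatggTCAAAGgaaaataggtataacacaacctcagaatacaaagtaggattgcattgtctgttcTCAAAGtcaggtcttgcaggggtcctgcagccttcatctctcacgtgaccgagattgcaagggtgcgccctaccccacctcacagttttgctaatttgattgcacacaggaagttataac
Bach2: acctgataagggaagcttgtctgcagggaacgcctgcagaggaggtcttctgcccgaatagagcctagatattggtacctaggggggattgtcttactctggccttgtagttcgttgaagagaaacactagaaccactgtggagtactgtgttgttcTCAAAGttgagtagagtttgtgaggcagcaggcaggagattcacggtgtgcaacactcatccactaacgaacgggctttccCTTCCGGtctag
Foxp1: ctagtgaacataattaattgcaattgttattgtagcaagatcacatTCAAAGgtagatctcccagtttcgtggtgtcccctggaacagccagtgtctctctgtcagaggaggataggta
Myb: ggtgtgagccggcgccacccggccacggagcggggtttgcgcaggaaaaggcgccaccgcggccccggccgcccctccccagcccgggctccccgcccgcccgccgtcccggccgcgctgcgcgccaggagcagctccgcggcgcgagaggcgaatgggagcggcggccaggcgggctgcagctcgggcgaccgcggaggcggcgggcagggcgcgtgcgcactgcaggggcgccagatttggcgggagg

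Of the 9 members, 8 had at least 1 RefSeq start window, 18 windows in all, and *Ets1* had none in the table used. The TCF/LEF letters lay within 250 bases before a start in 3 members, and in 3 of the 18 windows. They lay 180 and 120 bases before the *Lef1* start, 93 bases before the *Bach2* start and 204 bases before the *Foxp1* start. The ETS letters lay in 2 members, and in 2 of the 18 windows. These were 12 bases before that *Bach2* start and 25 bases before a *Tcf7* start that is not printed. Of 32851 windows of the same length over all genes, 13.8% held the TCF/LEF letters and 6.91% held the ETS letters. The forkhead letters GTAAACA (in 3.17% of all windows), the RUNX letters TGTGGT (14.0%) and the BACH/MAF letters TGAGTCA (4.46%) matched no member window on either strand. The motifs do not overlap one another in the printed sequences, and a match is a description of letters, not of a bound site.

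In both sets 8 of the 9 factors were lower in CD4+Lrig1+ T cells, and *Myb* was higher in both. *Satb1* and *Lef1* stood at 45.6% of the CD4+Lrig1- level or less in each set, *Bach2* and *Tcf7* followed, and *Foxp1*, *Foxo1*, *Ets1* and *Foxo3* differed by smaller amounts. Over all 16123 genes tested, 41.3% were lower and 36.5% were higher in both sets. The median log2 fold change of the 9 members was -0.40 (-0.37 in set 1 and -0.47 in set 2), against -0.04 over all genes tested (0.01 and -0.06). Both CD4+Lrig1+ libraries lay below both CD4+Lrig1- libraries for 5 members (*Tcf7*, *Lef1*, *Satb1*, *Foxo1* and *Ets1*), a separation seen for 11.8% of all genes in this direction and for 14.3% in the other. No member lay above in this way.

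edgeR's quasi-likelihood test on the 4 libraries, with Benjamini-Hochberg adjustment over all genes, called 0 of the 9 members, and it called 0% of all genes in each direction. At an unadjusted p under 0.05 it listed 2 members as lower, *Lef1* and *Satb1*, beside 1.41% of all genes lower and 4.18% higher. The libraries differed more between the sets than between the groups, and deviations from the group means in the same table correlated at 0.883 across genes, which are not independent replicates. With the table as a term in the same test, 7 members were called lower and 1 higher, beside 12.8% and 14.6% of all genes. That fit leaves 1 residual degree of freedom, and the labels do not say what libraries in 1 table share. An exact permutation test of 2 libraries against 2 cannot give a p below 0.333.

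**Figure D1:**
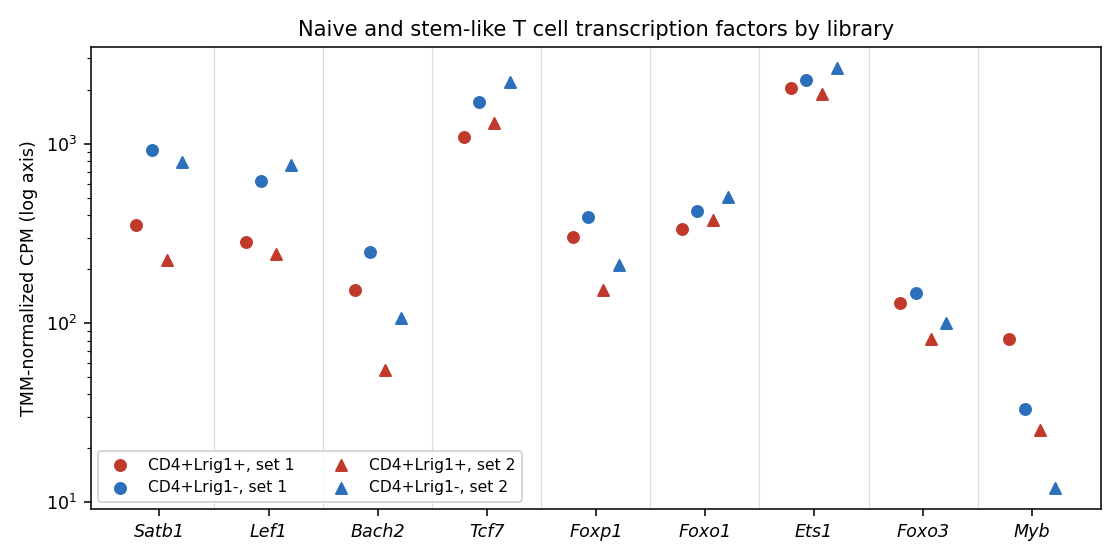
TMM-normalized CPM (log axis) of the 9 factors in each library, with CD4+Lrig1+ in red, CD4+Lrig1- in blue, circles for set 1 and triangles for set 2. Within each set the red point lies below the blue point for 8 factors and above it for *Myb*, which ran from 12.0 to 81.7 CPM.

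*Tcf7* and *Lef1*, the TCF/LEF pair, were both lower. *Tcf7* (chr11:52246527-52283383, minus strand, 12 transcripts in the tables) had a CPM (estimated counts scaled to library size, normalized by the TMM method) of 1094 in CD4+Lrig1+ against 1713 in CD4+Lrig1- in set 1, and of 1306 and 2218 in set 2. The groups did not overlap, and the CD4+Lrig1+ level was 63.8% and 58.9% of the CD4+Lrig1- level in the sets. Its log2 fold change over the 4 libraries was -0.71 (SE 0.43, edgeR adjusted p = 1.00), and with the table as a term it was -0.71 (SE 0.11, edgeR adjusted p = 0.00363). The 3′ end of *Tcf7* overlaps *Skp1a*, a gene of the ubiquitin ligase machinery, by annotation, and *Skp1a* had 4137 to 13344 counts in a library against 56877 to 119766 for *Tcf7*.

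*Lef1* (chr3:131110277-131224357, plus strand, 9 transcripts) showed the larger difference of the pair. Its CPM was 282 in CD4+Lrig1+ against 619 in CD4+Lrig1- in set 1, and 243 and 760 in set 2. The groups were far from overlapping, since the lowest CD4+Lrig1- library held more than both CD4+Lrig1+ libraries added together. The level in CD4+Lrig1+ was 45.6% and 31.9% of that in CD4+Lrig1-. The log2 fold change was -1.39 (SE 0.37, edgeR adjusted p = 0.682), and -1.39 (SE 0.13, edgeR adjusted p = 3.56e-04) with the table as a term. Taken within a library, where the scaling of the library drops out, the FPKM of *Lef1* over that of *Tcf7* was 0.241 in CD4+Lrig1+ against 0.336 in CD4+Lrig1- in set 1, and 0.176 and 0.323 in set 2. *Lef1* was thus lower relative to *Tcf7* in both CD4+Lrig1+ libraries.

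*Satb1*, the chromatin organizer (chr17:51736187-51833290, minus strand, 15 transcripts), had the most negative fold change of the members. Its CPM was 355 in CD4+Lrig1+ against 927 in CD4+Lrig1- in set 1, and 226 and 796 in set 2. Both CD4+Lrig1+ libraries lay well below both CD4+Lrig1- libraries, at 38.2% and 28.4% of the level in their own set. The log2 fold change was -1.57 (SE 0.43, edgeR adjusted p = 0.690), and -1.60 (SE 0.12, edgeR adjusted p = 1.52e-04) with the table as a term. The log2 ratios of *Satb1* (-1.39 and -1.81) and *Lef1* (-1.13 and -1.65) were beyond the 5th percentile of all genes (-1.01 in set 1 and -1.32 in set 2), and those of the other members were inside the range from the 5th to the 95th percentile.

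*Bach2*, the repressor of effector genes (chr4:32238413-32586109, plus strand, 12 transcripts), differed between the sets as well as between the groups. Its CPM was 153 in CD4+Lrig1+ against 249 in CD4+Lrig1- in set 1, and 54.6 and 107 in set 2. The higher of the CD4+Lrig1+ libraries therefore lay above the lower of the CD4+Lrig1- libraries, and the groups overlapped, although in each set CD4+Lrig1+ was the lower, at 61.3% and 51.0%. The log2 fold change was -0.78 (SE 0.73, edgeR adjusted p = 1.00), and -0.84 (SE 0.087, edgeR adjusted p = 5.43e-04) with the table as a term. Without that term, the fold change came to -0.01 when set 1 lost its CD4+Lrig1- library, to -0.22 when set 2 lost its CD4+Lrig1+ library, to -1.26 when set 2 lost its CD4+Lrig1- library and to -1.69 when set 1 lost its CD4+Lrig1+ library.

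The forkhead factors differed less. *Foxp1* (chr6:98925342-99522746, minus strand, 41 transcripts) had a CPM of 302 in CD4+Lrig1+ against 390 in CD4+Lrig1- in set 1, and of 153 and 211 in set 2. *Foxo1* (chr3:52268337-52350109, plus strand, 1 transcript) had 337 and 423 CPM in set 1 and 376 and 508 CPM in set 2. *Foxo3* (chr10:42181845-42276839, minus strand, 2 transcripts) had 129 and 147 CPM in set 1 and 81.7 and 99.8 CPM in set 2. Long noncoding RNAs that overlap *Foxp1* and *Foxo3* by annotation had at most 353 counts in a library. *Foxo1* separated the groups, whereas *Foxp1* and *Foxo3* followed the set and were lower in CD4+Lrig1+ only within each set. The log2 fold changes were -0.40 (SE 0.56) for *Foxp1*, -0.39 (SE 0.35) for *Foxo1* and -0.23 (SE 0.41) for *Foxo3*, each with an edgeR adjusted p of 1.00. With the table as a term the edgeR adjusted p was 0.00851 for *Foxp1*, 0.0158 for *Foxo1* and 0.0448 for *Foxo3*, the last just under the threshold of 0.05. With that term but no filter on low counts, *Foxo1* (edgeR adjusted p = 0.0646) and *Foxo3* (edgeR adjusted p = 0.117) were not called, and *Foxo3* was not called by limma on log2(FPKM + 1) either (limma adjusted p = 0.107). Fits without that term turned above 0 for *Foxp1* (0.14) and *Foxo3* (0.12) when the CD4+Lrig1- library of set 1 was left out, and to 0.01 and 0.06 without the CD4+Lrig1+ library of set 2. The FPKM of *Foxo3* over that of *Foxo1* was 0.313 in CD4+Lrig1+ against 0.286 in CD4+Lrig1- in set 1 and 0.174 and 0.157 in set 2, so this ratio varied more between the sets than between the groups.

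*Ets1* (chr9:32636183-32757820, plus strand, 3 transcripts), second to *Tcf7* in mean FPKM, was the member not called with the table as a term. Its CPM was 2051 in CD4+Lrig1+ against 2265 in CD4+Lrig1- in set 1, and 1905 and 2642 in set 2. The groups did not overlap, but the CD4+Lrig1+ level was 90.5% of the CD4+Lrig1- level in set 1 and 72.1% in set 2. The log2 fold change was -0.31 (SE 0.43, edgeR adjusted p = 1.00), and with the table as a term it was -0.31 (SE 0.13, edgeR adjusted p = 0.126).

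*Myb* (chr10:21124930-21160984, minus strand, 2 transcripts) was the member that was higher. Its CPM was 81.7 in CD4+Lrig1+ against 33.2 in CD4+Lrig1- in set 1, and 25.3 and 12.0 in set 2. The lower of the CD4+Lrig1+ libraries lay below the higher of the CD4+Lrig1- libraries, so the groups overlapped, while within the sets CD4+Lrig1+ was at 246% and 211% of CD4+Lrig1-. The log2 fold change was 1.24 (SE 0.83, edgeR adjusted p = 1.00), and 1.19 (SE 0.095, edgeR adjusted p = 1.78e-04) with the table as a term. Without that term, the *Myb* fold change was 0.18 when set 1 lost its CD4+Lrig1+ library, 0.69 when set 2 lost its CD4+Lrig1- library, 1.85 when set 2 lost its CD4+Lrig1+ library and 2.19 when set 1 lost its CD4+Lrig1- library. The counts behind these values ran from 647 to 4248 in a library. Relative to *Tcf7*, the FPKM ratio of *Myb* was 0.0614 in CD4+Lrig1+ against 0.0162 in CD4+Lrig1- in set 1 and 0.0155 and 0.00422 in set 2.

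**Figure D2:**
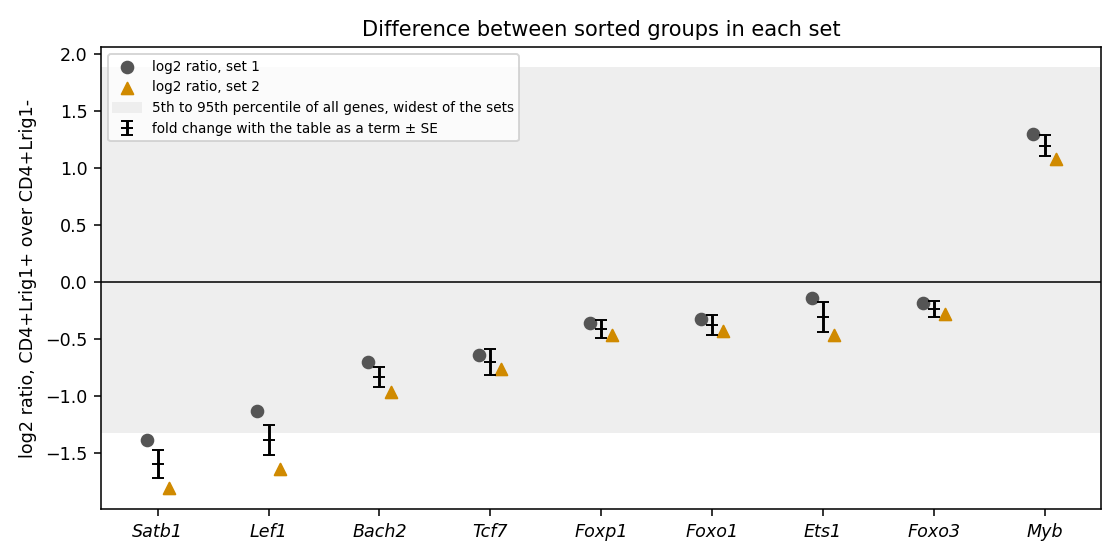
Log2 ratio of the CD4+Lrig1+ to the CD4+Lrig1- level for each factor in set 1 (circles) and set 2 (triangles). Bars give the fold change and its SE from the fit with the table as a term. Shading runs from the lower 5th to the higher 95th percentile of all genes in the sets (-1.32 to 1.87). *Lef1* in set 1 (-1.13) thus lies inside the shading, although it is below the 5th percentile of set 1 (-1.01). *Satb1* (-1.39 and -1.81) and *Myb* (1.30 and 1.08) mark the ends of the order.

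Compared per length of transcript, by FPKM, the members spanned a wide range of levels. The mean over the 4 libraries was 504 for *Tcf7*, 401 for *Ets1*, 142 for *Lef1*, 89.3 for *Satb1* and 67.5 for *Foxo1*, then 33.2 for *Foxp1*, 15.5 for *Foxo3*, 13.6 for *Bach2* and 10.2 for *Myb*. *Tcf7* and *Ets1* lay within their spread of each other in CD4+Lrig1+ T cells (393 ± 43.9 and 366 ± 35.2 FPKM, SD, n = 2), with *Ets1* the higher in set 1 and *Tcf7* in set 2, whereas in CD4+Lrig1- T cells *Tcf7* (616 ± 76.3) was above *Ets1* (437 ± 7.66) in both sets. *Satb1* ranked above *Foxo1* in both CD4+Lrig1- libraries and below it in both CD4+Lrig1+ libraries (45.9 ± 13.9 against 59.7 ± 1.98 FPKM in the latter, SD, n = 2). *Foxo3*, *Bach2* and *Myb*, the lowest members, changed order between libraries. The SD of each group is over 1 library of each set, so it holds the difference between the sets. *Myb* was the lowest in both CD4+Lrig1- libraries, and *Bach2* was the lowest in both CD4+Lrig1+ libraries. The libraries' summed FPKM ran from 374165 to 598247, so means and SDs of FPKM carry this difference in scale, and the order was read within each library.

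The tables list transcripts, and *Foxp1* was the member whose estimated transcript starts differed most between the groups. Transcripts were grouped by annotated start, starts within 1000 bases of each other together, numbered from the 5′ end of the gene, and each group's share of the summed FPKM of the gene was taken. The seventh of the 14 *Foxp1* groups (4 transcripts, starts from 99266515 to 99266646) took 11.2% in CD4+Lrig1+ against 36.7% in CD4+Lrig1- in set 1, and 12.5% and 49.9% in set 2. The twelfth group (4 transcripts, from 99096672 to 99097770) took 63.0% and 15.5% in set 1 and 71.0% and 40.0% in set 2. The starts of the seventh and of the twelfth group both lie inside the gene. For both start groups the CD4+Lrig1+ libraries did not overlap the CD4+Lrig1- libraries, in opposite directions. The fifth group took 7.82% and 23.0% in set 1 and 0.496% and 6.75% in set 2, and the fourteenth took 10.5% and 8.76% in set 1 and 15.8% and 0.0710% in set 2. StringTie splits reads that transcripts share, and with 41 listed *Foxp1* transcripts these shares are estimates with no error given.

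In *Bach2*, the third of 4 start groups (2 transcripts) took 7.11% in CD4+Lrig1+ against 1.39% in CD4+Lrig1- in set 1. In set 2 it took 11.5% and 2.02%. The first group took nearly all the rest, from 88.5% to 97.7%. The bases printed above precede only the start at 32417435 of the third group. The transcript from that start took 0.659% and 0.471% in set 1, and 6.53% and 1.94% in set 2. The other transcript of the third group, starting at 32417608, took 6.45% and 0.916% in set 1. In set 2 that other transcript took 4.94% and 0.0789%. In *Lef1*, the start inside the gene took 28.1% and 24.4% in set 1 and 17.9% and 37.0% in set 2, so the direction differed between the sets. The *Satb1* group nearest the 3′ end took 24.5% and 14.9% in set 1 and 16.7% and 13.9% in set 2. *Tcf7* and *Ets1* each took 99.2% or more of their FPKM from 1 start group in every library, and *Foxo1*, *Foxo3* and *Myb* had 1 group. Of the 14 start groups of members with a mean share of at least 5%, 8 did not overlap between the sorted groups. Of 6425 such start groups in all genes, 20.5% did not overlap. The 8 belonged to *Bach2*, *Ets1*, *Foxp1* and *Satb1*, and shares within a gene depend on one another. The *Ets1* group took 99.84% and 99.996% in set 1 and 99.77% and 99.997% in set 2. Of the 14, 2 did not overlap and also differed by at least 10 percentage points in both sets, and both were of *Foxp1*. Of the 6425 start groups in all genes, 6.99% did so.

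**Figure D3:**
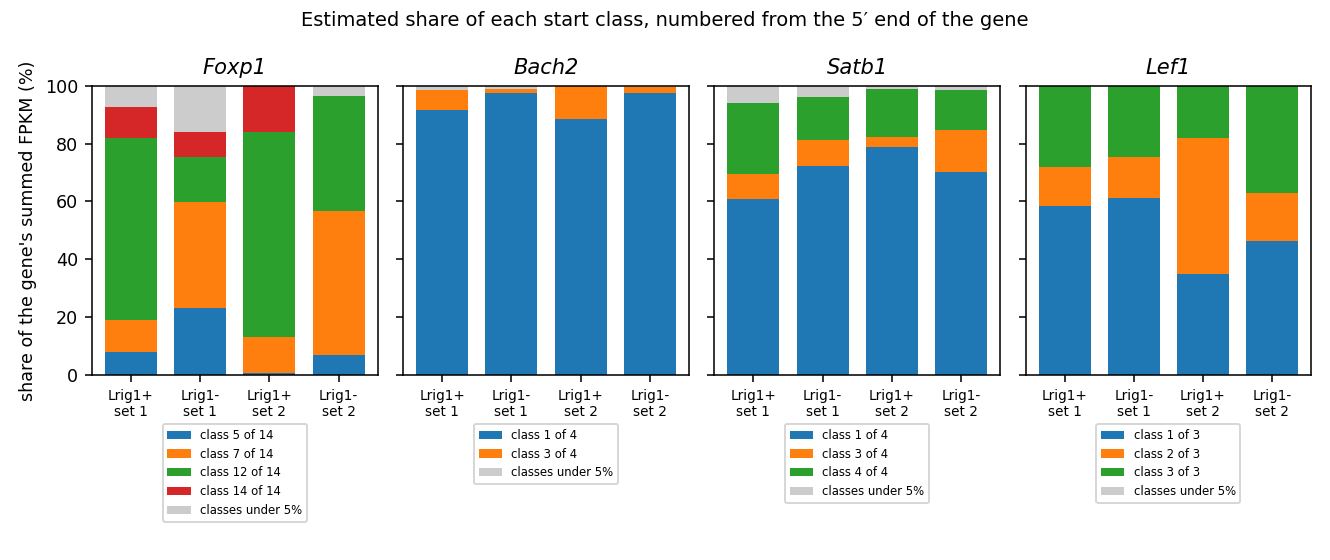
Share of the summed FPKM of *Foxp1*, *Bach2*, *Satb1* and *Lef1* (in percent) taken by each start group (class in the legend, numbered from the 5′ end), 1 bar for each library, with groups under a mean of 5% in grey. For *Foxp1* the seventh group is the smaller and the twelfth the larger in CD4+Lrig1+ T cells of both sets.

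The naive T cell genes that accompany these factors were lower as well. Of 11 surface and cytoskeletal genes of naive T cells, 11 were lower in both sets and 10 were called lower with the table as a term. Over all genes, 41.3% were lower in both sets, and that fit called 12.8% lower. The median log2 fold change of the list was -0.97 against -0.04 over all genes. Values in parentheses here are log2 fold changes over the 4 libraries, without the table as a term. *Igfbp4* (-2.35) and *Dapl1* (-1.97) were the lowest, and *Nsg2* (-0.22), the gene not called, was the highest. *Igfbp4* had a CPM of 192 in CD4+Lrig1+ against 709 in CD4+Lrig1- in set 1 and 157 and 1070 in set 2, without overlap. Without the table as a term, edgeR's quasi-likelihood test called no gene of this or of the other lists, whereas the DESeq2 Wald test called 9 listed genes higher and 2 lower, and the exact test of edgeR 8 and 1.

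With the table as a term, 12.8% of all genes were called lower and 14.6% higher. Of 14 Foxo target genes, 6 were called lower and 0 higher in that fit (median log2 fold change -0.20). They included *Il7r*, the IL-7 receptor chain (-1.20), *Ccr7*, the lymph node homing receptor (-0.97), *S1pr1*, the receptor for exit from lymphoid organs (-0.86), *Rictor*, a subunit of mTORC2 (-0.65), and *Klf2*, a factor that drives *S1pr1* (-0.54). The naive list also holds *Il7r*, *Ccr7* and *S1pr1*. The other 8 were not called, with *Sesn1* (0.17) and *Fbxo32* (0.23) the highest. Of 12 genes that control Foxo through PI3K and Akt, 6 were called lower and 1 higher with the table as a term (median -0.27). The lowest were *Sgk1*, a kinase that phosphorylates Foxo proteins (-1.38), and *Pik3ip1*, an inhibitor of PI3K (-0.88), and both were called lower. *Akt1* (0.09) was not called, and *Phlpp1*, a phosphatase of Akt, was called higher (1.40), with 48.1 CPM in CD4+Lrig1+ against 16.6 in CD4+Lrig1- of set 1 and 26.4 and 11.7 in set 2.

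Of 17 tested partners and regulators of TCF/LEF factors, 10 were called lower and 1 higher with the table as a term (median -0.24). Over all genes, the shares called in that fit were 12.8% lower and 14.6% higher. *Jup*, the β-catenin relative γ-catenin (-0.86), and the corepressor *Tle1* (-0.76) were the lowest. *Ctnnb1*, which encodes β-catenin, had 275 CPM in CD4+Lrig1+ against 277 in CD4+Lrig1- of set 1 and 242 and 241 in set 2 (log2 fold change -0.00). *Ctnnbip1*, an inhibitor of β-catenin (1.55), was called higher at a CPM of 0.919 to 4.58, and *Tle2* (0.46), with at most 2.04 CPM, was not called. Of the 5 Bach2 partners, *Maff* (-0.73), *Mafk* (-0.33) and *Ncor1* (-0.29) were called lower with the table as a term, *Mafg* (0.60) was called higher and *Hdac3* (0.18) was not called. Of 13 quiescence genes, 3 were called lower and 0 higher, beside the same shares of all genes (median -0.15). These 3 were *Pik3ip1*, *Klf2* and *Klf3* (-0.45). *Klf4* (0.68) and *Foxj1*, which was under 1 CPM in each library, were the highest of that list and were not called.

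Relatives in the same protein families did not share 1 direction. Of 16 listed, 12 were tested, and 2 were higher and 4 lower by the test with the table as a term (median -0.26). That test called 14.6% of all genes higher and 12.8% lower, so the count of relatives called higher was near the share over all genes. *Foxp3*, the forkhead relative that defines regulatory T cells, had a CPM of 589 in CD4+Lrig1+ against 48.9 in CD4+Lrig1- in set 1 and 615 and 30.7 in set 2, with a log2 fold change of 3.92. *Foxp4* (0.75) was called higher too, and *Bach1* (-0.76), *Ets2* (-0.55), *Elf1* and *Fli1* were called lower. Among those not tested, *Foxo6*, *Foxp2* and *Erg* had at most 5 counts in a library.

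The effector factors stood on the other side. Of 15 transcription factors of effector T cells, 10 were higher and 2 lower by the test with the table as a term (median 1.14). That test called 14.6% of all genes higher and 12.8% lower. *Nfil3* (2.90) and *Eomes* (2.29) were the highest, and *Id2* (-1.02) and *Tbx21*, which encodes T-bet (-0.58), were called lower. *Prdm1*, which encodes Blimp-1, the repressor of *Tcf7* in effector cells, had 17.5 CPM in CD4+Lrig1+ against 16.4 in CD4+Lrig1- of set 1 and 13.3 and 13.0 in set 2, and was not called (0.07). Of 8 genes often used to mark stem-like T cells beside *Tcf7*, 6 were called higher and 1 lower (median 0.89). *Cxcr5* (2.02) and *Id3* (1.29) were the highest, *Xcl1* (-0.88) was called lower and *Cd28* (0.15) was not called. Of these 8 genes, 7 were higher in both sets, opposite to *Tcf7*, and 36.5% of all genes were higher in both sets. The part of regulatory T cells in the differences of the effector and stem-like lists was not tested.

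**Figure D4:**
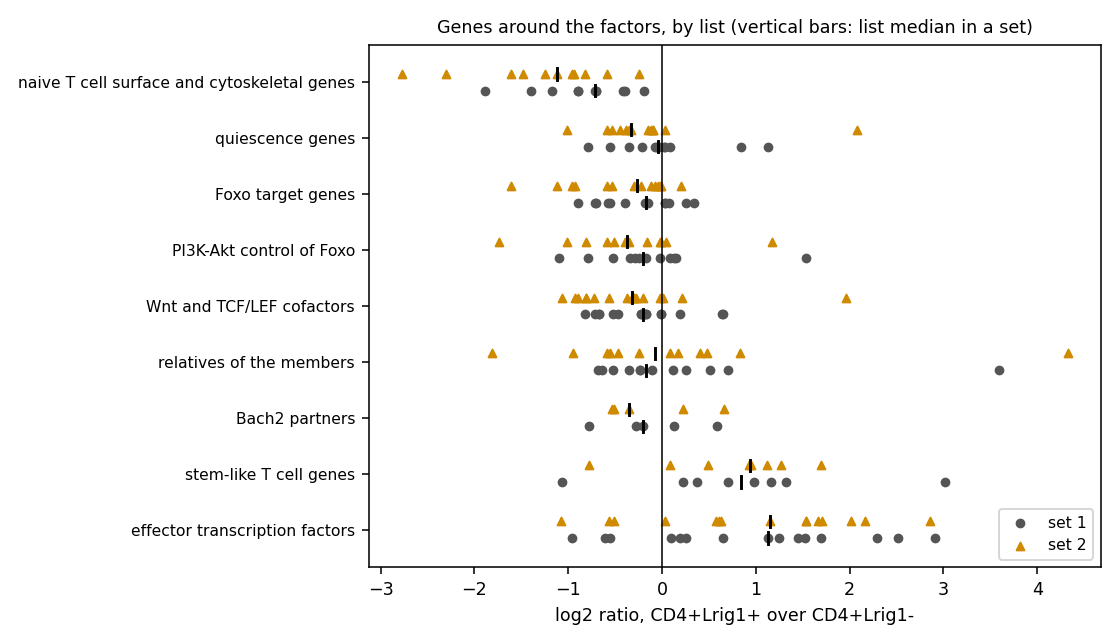
Log2 ratio of the CD4+Lrig1+ to the CD4+Lrig1- level for each tested gene of 9 lists, with set 1 as circles, set 2 as triangles and the median of each list in each set as a vertical bar. The naive list lies below 0 (medians -0.72 and -1.12), and the effector factors (1.12 and 1.15) and stem-like genes (0.84 and 0.94) have medians above 0.

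Some markers of other cells and cell states also differed between the groups. *Lrig1*, the gene of the sort, had a CPM of 221 in CD4+Lrig1+ against 75.4 in CD4+Lrig1- in set 1 and 129 and 36.7 in set 2. All 8 regulatory T cell genes were called higher with the table as a term (median 3.47), and their summed CPM was 2536 and 2478 in CD4+Lrig1+ against 318 and 272 in CD4+Lrig1- T cells. Of 9 T cell identity genes, 2 were called higher and 0 lower, and *Cd4* ran from 924 to 1100 CPM. The summed CPM of 12 B cell markers was 100 in CD4+Lrig1+ against 80.8 in CD4+Lrig1- in set 1 and 410 and 820 in set 2. *Cd22*, named after its values were seen, made 32.8 and 16.2 of the set 1 sums, and the median log2 ratio of the 12 markers was -0.08 in set 1 and -1.18 in set 2. Of those 12 markers, 8 were lower in both sets and 3 were called lower with the table as a term. The summed CPM of 7 NK cell markers was 19.0 and 66.4 in set 1 and 60.4 and 187 in set 2, and 6 were called lower. Both CD8 genes were called lower, at a sum of 14.1 and 19.5 in set 1 and 51.6 and 97.3 in set 2. Of 9 myeloid markers 2 were called higher and 1 lower, and of 5 erythroid markers 0 were called. No gene of these marker lists was at 0 in a library. The part of these cell types in the members' differences was not tested.

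The genes whose profile over the 4 libraries was most like each member were found among 8822 other genes with a mean CPM of at least 10, by the root mean square difference of centred log2 CPM. They were *Stk26* for *Tcf7* (0.026), *Atp1b1* for *Lef1* (0.046), *Itgb3* for *Satb1* (0.044) and *Spice1* for *Bach2* (0.046). For the others they were *Nab1* for *Foxo1* (0.0075), *Scaf11* for *Foxo3* (0.012), *Gtf2ird2* for *Foxp1* (0.013), *Sfxn2* for *Ets1* (0.011) and *Mxd4* for *Myb* (0.12). *Myb* had the least close match. With 4 libraries and 8822 candidates, close matches are easy to find, and shared control was not tested. *Itgb3*, an integrin chain, had a mean of 82.0 CPM in CD4+Lrig1+ against 249 in CD4+Lrig1-. *Mxd4*, a MAX-binding repressor of growth genes, had 80.9 and 34.3.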

How the data were processed

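Bulk mRNA of CD4+Lrig1+ and CD4+Lrig1- T cells was prepared with a stranded kit and sequenced. Per the submitters' processing notes and the methods, reads were trimmed with Trimmomatic 0.38, mapped with HISAT2 2.1.0 and assembled with StringTie 2.1.3b against RefSeq transcripts (129299 listed). The authors deposited estimated counts per transcript, not normalized, and FPKM values, which StringTie scales by transcript length and mapped fragments. Whether counting used strand is not given in the sources used here, so overlapping genes may share reads.

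The labels list 6 samples, 3 a group. The 4 libraries whose columns name the group were used, and 6 columns of per-sample values in a further table, whose names do not give it, were not used here. Libraries held 44865070 to 59977951 counts.

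Estimated counts, whole numbers as deposited, were added up for each gene. In R 4.3.3, genes passing filterByExpr of edgeR 4.0.16 entered its quasi-likelihood test after TMM normalization, and calls needed a Benjamini-Hochberg adjusted p below 0.05. A prior count of 2 was added for the log2 ratios inside each set. The alternatives were DESeq2 1.42.0, edgeR's exact test, limma 3.58.1 on log2(FPKM + 1) or log2(FPKM + 0.1), other filters, removal of 262 immunoglobulin genes, omitting single libraries and the table as a term. The columns carry no replicate numbers. The procedure was run on simulated counts without a difference between sets, so that run does not cover the set differences seen here. Files were read with Python 3.11.15.

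The members, the gene lists and the use of the table as a term were chosen with earlier results of these data known. Named genes were the members, the gene nearest each member, the 2 highest and 2 lowest of each list (all of lists of up to 6), *Lrig1*, and *Foxp3*, *Akt1*, *Ctnnb1*, *Prdm1*, *Klf2*, *Ccr7*, *Il7r* and *S1pr1*. *Rictor*, *Klf3*, *Elf1* and *Fli1* were named after their values were seen, to complete a count. Some listed genes are not reported here by name. Gene coordinates are of GRCm38, and start windows came from RefSeq.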

Additional observations from a re-analysis of the deposited data

How the results depend on the processing

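All 9 members kept their direction under the other filters, scalings and tests, and only leaving out a library turned any. *Foxo3* (0.12) and *Foxp1* (0.14) were above 0 when set 1 lost its CD4+Lrig1- library, and again when set 2 lost its CD4+Lrig1+ library (0.06 and 0.01). When single libraries were omitted, *Bach2* ran from -1.69 to -0.01, *Myb* from 0.18 to 2.19, *Foxp1* from -0.96 to 0.14, *Foxo3* from -0.57 to 0.12, *Satb1* from -1.90 to -1.28, *Lef1* from -1.49 to -1.23, *Tcf7* from -0.85 to -0.51, *Foxo1* from -0.47 to -0.25 and *Ets1* from -0.38 to -0.19. In the same fits the members' median ran from -0.57 to -0.26, 1 to 88 genes were called higher and 0 to 2 lower, and 0 to 5 listed genes were called higher. The DESeq2 Wald test called 263 genes higher and 50 lower (9 and 2 of the listed genes), and edgeR's exact test 179 and 14 (8 and 1), with no member called by either. With the replicate block (the table as a term) 2358 genes were called higher and 2056 lower, 1 and 7 members, and 32 and 51 listed genes. Combined with the block, the DESeq2 Wald test called 1847 and 1960 genes (members 1 and 8, listed 30 and 55), DESeq2 size factors 2208 and 2388 (1 and 7, 30 and 56), no filter on low counts 1304 and 820 (1 and 5, 28 and 30), limma on log2(FPKM + 1) 1911 and 1016 (1 and 6, 29 and 38), and an adjusted p under 0.1 2954 and 2824 (1 and 7, 33 and 64). Without the filter *Foxo1* and *Foxo3* lost their calls, with limma *Foxo3* did, and with the DESeq2 Wald test *Ets1* gained one. The cause was not tested. Deviations from the group means in the same table correlated at 0.883 over 16123 genes. The columns carry no replicate numbers, so the block shares only the table. Scaling moved the median of all genes by less than 0.1 on the log2 scale.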
